A study of Mus musculus with 3 samples.

Results

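The R-spondin receptors Lgr4, Lgr5 and Lgr6, the secreted R-spondins Rspo1 to Rspo4, and the E3 ubiquitin ligases Znrf3 and Rnf43 were measured in nuclei of the mouse dorsal root ganglion (DRG), the structure that holds the cell bodies of sensory neurons, their satellite glial cells (SGCs), Schwann cells, fibroblasts, vessels and immune cells. The members were taken by gene symbol from the gene list of the count matrices, and all 9 were found once among 32227 genes. They were chosen by their UMI levels across the cell classes of these same libraries, so the order of classes for each gene is given as a description and was not tested. The nuclei came from L3 to L5 ganglia of C57BL/6 mice labelled male. One group was 3 months old (adult, 1 library) and the other 21 months old (aged, 2 libraries). Neither group carried a transgene, injury or drug in the labels, and the number of animals behind each library is not given there, so the spread between the aged libraries may be partly technical. The series' design text gives another age for the aged group and the study's methods another sex. The sample labels were used here.

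R-spondins are secreted proteins that bind an Lgr receptor together with Znrf3 or Rnf43. Both ligases mark Frizzled, the Wnt receptor, for removal from the cell surface, and an R-spondin bound to an Lgr receptor takes the ligase away instead, so that more Frizzled stays and the cell answers Wnt more strongly. Znrf3 and Rnf43 are themselves induced by Wnt in many tissues, and Lgr5 is best known as a mark of stem cells in gut and hair follicle. Together the 9 genes hold a secreted signal, its receptor and the brake it releases, so a ganglion can be asked which cells make each of them.

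The libraries held 167664164 (adult 1), 95647106 (aged 1) and 69045987 (aged 2) unique molecular identifiers (UMIs, each a counted RNA molecule). Barcodes with more than 1000 genes were taken as nuclei, which left 11518, 5130 and 2611 nuclei with a median of 3269, 4317.5 and 4900.0 UMIs. In nuclei of SGC-like cells the gap in depth was larger, with medians of 3191 UMIs in the adult library and 7246 in aged 1. Shares of nuclei with a UMI are therefore given after each nucleus was thinned to 1000 UMIs, unless full depth is named. Levels are CPM, the UMIs of a gene in a class scaled to a fixed total of UMIs of that class in that library. Pairs of libraries shared at most 1 nuclear barcode. Clustering without the 9 genes and without the rest of the Wnt pathway gave 31 clusters. All but 2 were joined into 21 classes by their markers (18505 nuclei), and the other 2, with 754 nuclei, carried markers of several lineages and were set aside as mixed. The classes named with "-like" had at least 3 raised markers of their own list, which need not be the whole list. Another 5 classes were called by a leading gene because no list fitted them: Chrna7, Il1rapl2 and Skor2 neurons, and Slc47a1 and Ranbp3l fibroblasts. In the SGC-like class the summed level of the SGC markers was 2900, 3264 and 2975 CPM and none of the 7 markers was at 0. The class of non-myelinating Schwann cells (NMSC-like) also carried SGC markers, at 2195, 2243 and 1611 CPM. The SGC-like class carried the 7 NMSC markers at 3557, 3263 and 3587 CPM, so that the border between these glia is soft. In the NMSC-like class 4 of those 7 markers counted as raised. Ngfr (76.6 CPM, beside 117 in all other nuclei) and Gfra3 (14.2 beside 42.6) were lower there than elsewhere.

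On the GRCm38 assembly, the build of the files, the receptors lay at chr2:109917647-110014257 on the plus strand (Lgr4), chr10:115450311-115587780 on the minus strand (Lgr5) and chr1:134983301-135105276 on the minus strand (Lgr6). The R-spondins lay at chr4:124986430-125009099 on the plus strand (Rspo1), chr15:43020794-43170826 on the minus strand (Rspo2), chr10:29452416-29535867 on the minus strand (Rspo3) and chr2:151842927-151874668 on the plus strand (Rspo4). Znrf3 lay at chr11:5276324-5444847 on the minus strand and Rnf43 at chr11:87662722-87735539 on the plus strand. Nuclear RNA is rich in unspliced transcripts, so a UMI can come from any part of these spans. Whether the counting used strand is not stated in the sources used here. Without it, reads of a gene and of an antisense partner could not be told apart where their spans overlap. Lgr5 holds the antisense gene A930009A15Rik, with 1378 UMIs in named nuclei beside 11045 for Lgr5, and the 5′ end of Rspo3 overlaps the antisense gene Gm48159, with 31063 UMIs beside 2492 for Rspo3. Gm48159 lies at chr10:29534717-29614471, so it shares only chr10:29534717-29535867 with Rspo3, a small part of either span. Gm48159 was near even over most classes and fell from adult 1 to aged 2 in most of them. It had 222, 179 and 125 CPM (adult 1, aged 1 and aged 2) in endothelial-like nuclei, its highest class by the mean. In SGC-like nuclei it had 197, 173 and 101 CPM. Rspo1 overlaps Gm12930, which ends at chr4:124987009, only at its 5′ end, and Rspo4 overlaps Rspo4os. Rnf43 holds 1110028F11Rik on the same strand, with 17 UMIs in named nuclei beside 585 for Rnf43, and 1, 3 and 0 of these were in Ranbp3l fibroblasts, its highest class.

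**Figure D1:**
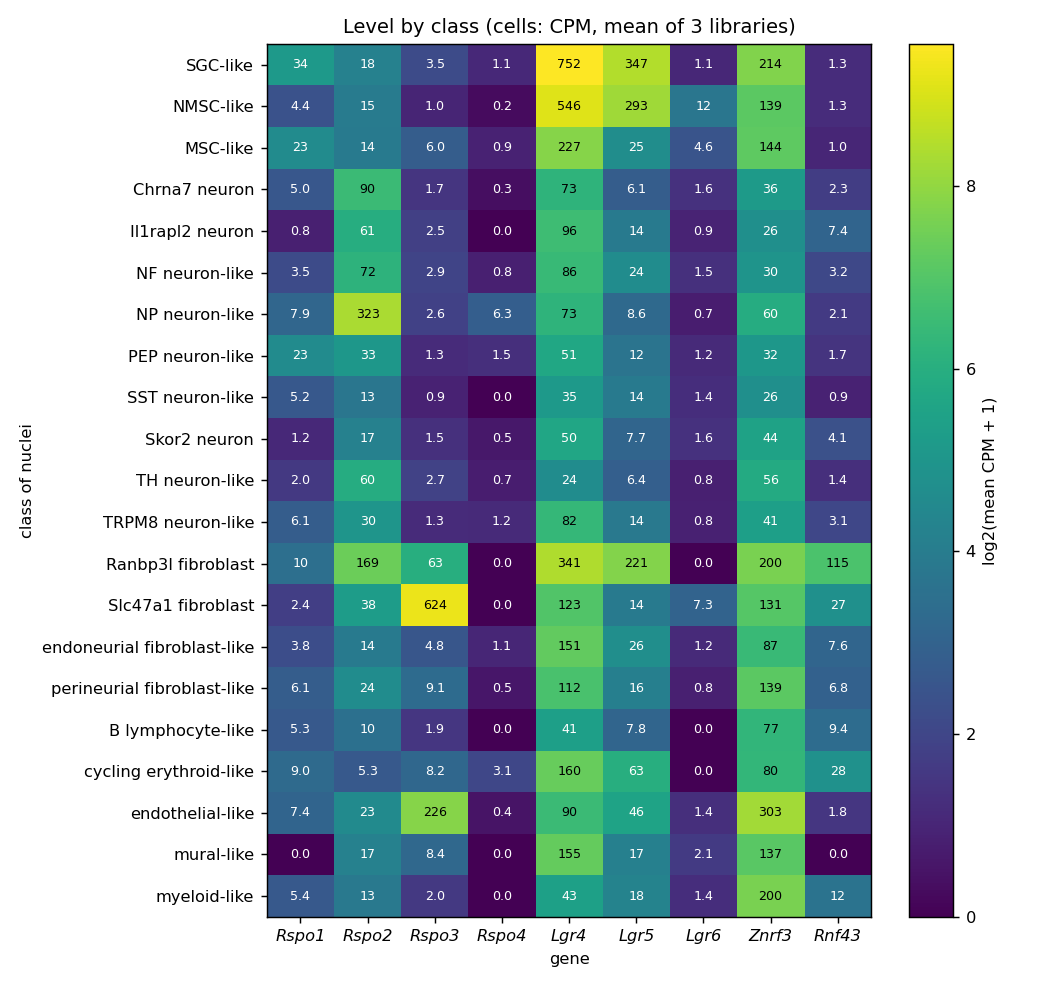
Mean level of the 9 genes (columns) in the 21 classes (rows) over the 3 libraries. Colour is log2(mean CPM + 1) and the number in each cell is the mean CPM. Lgr4 and Lgr5 are highest in SGC-like nuclei (752 and 347 CPM), Rspo2 in NP neuron-like nuclei (323 CPM) and Rspo3 in Slc47a1 fibroblasts (624 CPM).

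The R-spondins were led by 3 classes: Rspo2 and Rspo4 by NP neuron-like nuclei, Rspo3 by Slc47a1 fibroblasts and Rspo1 by SGC-like nuclei. Rspo2 was a neuronal transcript: neuron classes held 95.7% of its UMIs in adult 1, 95% in aged 1 and 97.2% in aged 2. It was highest in non-peptidergic nociceptors (NP neuron-like), small neurons of pain and itch that carry Mrgprd and P2rx3, at 266 CPM in adult 1, 337 CPM in aged 1 and 366 CPM in aged 2 (323 ± 51.5, mean ± SD, n = 3 libraries). These nuclei held 62.7% of all Rspo2 UMIs, and a UMI of Rspo2 was found in 18.8%, 19.2% and 27.5% of them at 1000 UMIs per nucleus. The Chrna7 neurons followed among neurons at 57.7, 107 and 107 CPM, then the NF neuron-like class of large myelinated afferents at 69.2, 70.6 and 77.0 CPM. Neither overlapped the NP neuron-like range, and they overlapped one another. Within the NP class the 4 clusters differed: cluster 6, the largest, held 313, 412 and 425 CPM, while clusters 11 and 18 had means of 232 and 237 CPM. The make-up of the NP class differed between ages, since cluster 11 was 43.3% of it in adult 1 and 22.1% and 19.2% in the aged libraries. Ranbp3l fibroblasts ranked between the NP and Chrna7 neurons by their mean (169 ± 180), but on 57, 36 and 2 UMIs in 137, 21 and 12 nuclei, so their place in the order is not fixed.

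Rspo3 was made by cells of the connective tissue and vessels. Slc47a1 fibroblasts, a fibroblast class with 1966 to 2693 CPM of the 6 fibroblast markers, held 575 CPM in adult 1, 529 CPM in aged 1 and 769 CPM in aged 2 (624 ± 127, n = 3), and 62.2% of all Rspo3 UMIs. No library of another class reached that range, and after thinning 34.8%, 33.7% and 37.7% of these nuclei had a UMI of Rspo3. Endothelial-like nuclei, the lining of the vessels, came second at 50.5, 295 and 332 CPM, where the aged libraries were far above the adult one. Ranbp3l fibroblasts ranked next with a mean of 62.7 CPM on 54 UMIs. Perineurial and endoneurial fibroblast-like nuclei had means of 9.14 and 4.81 CPM, so the fibroblast classes differed widely in Rspo3. The antisense gene Gm48159 had 193, 184 and 110 CPM in Slc47a1 fibroblasts, an order of libraries that differs from that of Rspo3.

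Rspo1 was sparse and shared between glia and neurons. SGC-like nuclei held 38.5, 28.8 and 35.8 CPM (34.4 ± 5.03, n = 3) and 34.1% of its UMIs. Peptidergic nociceptors (PEP neuron-like) held 15.8, 23.8 and 30.6 CPM, and myelinating Schwann cells (MSC-like) 14.7, 24.3 and 30.6 CPM. These 3 classes overlapped one another over libraries. In the other neuron classes Rspo1 was concentrated in 1 small cluster of the NP class, cluster 27, which led with 38.9, 70.1 and 59.6 CPM while the whole NP class had a mean of 7.89 CPM. Rspo1 overlaps the gene Gm12930 on the opposite strand, which had 3.23 CPM in SGC-like nuclei. NMSC-like nuclei, which shared Lgr4 and Lgr5 with SGC-like nuclei, did not share Rspo1 at this level. At full depth the 2 genes Lgr4 and Rspo1 were seen together in 9.41%, 18.0% and 19.3% of SGC-like nuclei and in 1.17%, 1.01% and 0% of NMSC-like nuclei. Such shares rise with depth, which was higher in the aged SGC-like nuclei, so they are not a measure of age.

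Rspo4 was the sparsest R-spondin, with 320 UMIs in all named nuclei. NP neuron-like nuclei held 86, 77 and 55 of them, 68.1% of the total, at 5.73, 6.86 and 6.36 CPM (6.32 ± 0.563, n = 3). The PEP neuron-like class had 0.745, 1.42 and 2.22 CPM. Within the class that led both genes, Rspo4 was higher in clusters 18 and 27 (means of 12.7 and 12.9 CPM) than in cluster 6. Cluster 6, where Rspo2 was highest, held 3.05, 5.61 and 5.72 CPM of Rspo4.

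**Figure D2:**
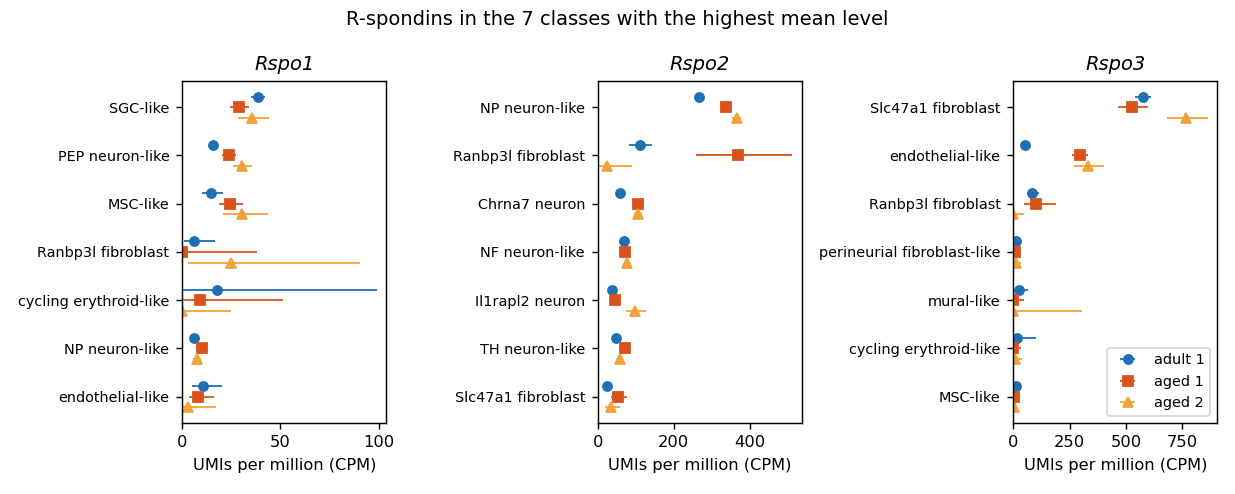
CPM of Rspo1, Rspo2 and Rspo3 in the 7 classes with the highest mean of each, 1 point per library, with exact Poisson 95% intervals that cover counting error only. Rspo3 in endothelial-like nuclei is the pair in which the adult library (50.5 CPM) lies far below the aged ones (295 and 332 CPM).

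Lgr5 sat mainly in glia, with 81.3%, 73.4% and 76.0% of its UMIs, and Lgr6 was spread over glia and neurons. Glial classes held 70.4%, 58.5% and 49.2% of Lgr4 UMIs and neuron classes 24.4%, 37.0% and 46.5%. Lgr4, the receptor with the widest range, held 840 CPM in adult 1, 680 CPM in aged 1 and 736 CPM in aged 2 in SGC-like nuclei (752 ± 81.6, n = 3), which carried 50.4% of its UMIs. At 1000 UMIs per nucleus 52.8%, 44.5% and 44.9% of SGC-like nuclei had an Lgr4 UMI, and at full depth 83.1%, 84.9% and 90.6%. NMSC-like nuclei had 796, 405 and 438 CPM, so that they overlapped the SGC-like class through the adult library only. MSC-like nuclei had 194, 221 and 266 CPM, and TH neuron-like nuclei, low-threshold touch afferents, had the lowest mean at 24.0 CPM. Every class had Lgr4 UMIs. In barcodes of at most 100 UMIs, which carry free RNA rather than a nucleus, Lgr4 stood at 109, 62.9 and 45.6 CPM, so low levels in a class must be read against that background.

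Lgr5 was narrower. SGC-like nuclei held 447, 278 and 316 CPM (347 ± 88.9, n = 3) and 64.5% of its UMIs, and NMSC-like nuclei 509, 164 and 205 CPM. After thinning, a UMI of Lgr5 was found in 32.2%, 22.6% and 26.0% of SGC-like and in 34.7%, 11.1% and 16.1% of NMSC-like nuclei. The adult NMSC-like sum was above the adult SGC-like one, while both aged NMSC-like sums were below the aged SGC-like ones. Ranbp3l fibroblasts had 46.5, 617 and 0 CPM, and the 60 UMIs behind the 617 CPM of aged 1 came from 2 of its 21 nuclei, 59 of them from a single nucleus. MSC-like nuclei had only 46.2, 21.3 and 6.13 CPM and so stood far below both other glial classes in Lgr5. Free RNA held 48.1, 17.1 and 11.9 CPM of Lgr5. The antisense gene A930009A15Rik had 48.9, 50.4 and 51.4 CPM in SGC-like nuclei and 49.4, 37.8 and 34.9 CPM in NMSC-like nuclei.

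Both receptors were often in the same nucleus. Of 3230 SGC-like nuclei in adult 1, 1707 had UMIs of Lgr4 and Lgr5, 977 had Lgr4 alone and 320 had Lgr5 alone at full depth. The share with both was 52.8%, 59.2% and 63.4% in SGC-like and 44.6%, 24.3% and 22.4% in NMSC-like nuclei. Lgr4 and the ligase Znrf3 were seen together in 37.3%, 55.9% and 63.8% of SGC-like nuclei. These shares rise with depth, which was higher in the aged SGC-like nuclei. The shares expected from the rate of each gene alone were not worked out, so pairing of these genes within nuclei is not shown.

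Lgr6 had 279 UMIs in named nuclei. NMSC-like nuclei were highest by the mean, at 1.88, 17.6 and 17.5 CPM, on 4, 26 and 12 UMIs. Slc47a1 fibroblasts followed with 1.72, 20.2 and 0 CPM, and the 10 UMIs of aged 1 were in 2 nuclei. The MSC-like class had 2.46, 6.35 and 5.11 CPM. None of these neighbours was apart from the next. Neuron classes held 76.4%, 42.2% and 53.2% of Lgr6 UMIs and glial classes 16.3%, 44.0% and 42.6%.

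**Figure D3:**
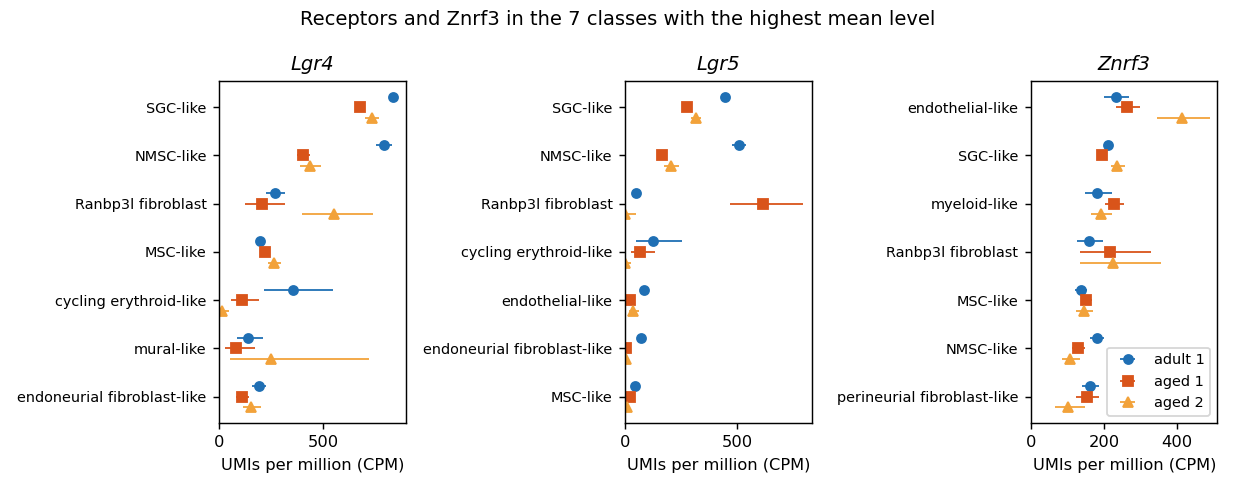
CPM of Lgr4, Lgr5 and Znrf3 in the 7 classes with the highest mean of each, 1 point per library, with exact Poisson 95% intervals that cover counting error only. In NMSC-like nuclei the adult library lies above both aged libraries for all 3 genes (796, 509 and 181 CPM in the adult library).

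Of the ligases, Znrf3 was broad and Rnf43 was rare. Znrf3 was highest by the mean in endothelial-like nuclei at 233, 264 and 413 CPM (303 ± 96.2, n = 3), followed by SGC-like nuclei at 210, 196 and 237 CPM and myeloid-like nuclei at 182, 227 and 191 CPM. The SGC-like range overlapped both others, while the endothelial-like and myeloid-like ranges did not meet. SGC-like nuclei held 29.4% of its UMIs, and Il1rapl2 neurons had the lowest mean, 26.1 CPM. Rnf43 had 585 UMIs, and its one clear peak was in Ranbp3l fibroblasts at 110, 134 and 100 CPM (115 ± 17.1, n = 3) on 57, 13 and 8 UMIs. No library of another class reached that range. Neuron classes held 52.1%, 55.2% and 65.6% of Rnf43 UMIs but at means of 0.902 to 7.43 CPM.

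Across the 21 classes the pattern of log2(CPM + 1), averaged over the 3 libraries, was compared between genes, as a description. Classes share libraries and depth, so these values are not independent. Among the members Lgr4 and Lgr5 were most alike (r = 0.72), then Lgr5 and Rspo1 (r = 0.51) and Rspo3 and Znrf3 (r = 0.50). Of 13896 genes, those most like Lgr4 were Ppp2r3a (r = 0.90), Farp2 and Synpo2, and those most like Lgr5 were Gpam (r = 0.90), Tfap2a and Acsbg1. Rspo2 was nearest to Rab27b (r = 0.84), Prmt8 and Esrrb, and Rspo4 to Hnf4g (r = 0.83), Mrgprd and Gpr179. Rspo3 was nearest to Ptgis (r = 0.88), Bmp4 and St6galnac2, and Rspo1 to Ptprt (r = 0.84), Scd2 and the Frizzled gene Fzd3. Znrf3 was nearest to Dock1 (r = 0.90), Tcf7l2 and Mertk, where Tcf7l2 encodes a transcription factor at the end of the Wnt pathway. Rnf43 was nearest to Nadk2 (r = 0.85), Slc16a6 and Ndst2, and Lgr6 to Map4 (r = 0.76), Slc25a15 and Zfp607b. In single libraries the r of these 27 pairs fell as low as 0.16.

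The aged libraries were then set against the adult one, class by class, to ask whether the R-spondin receptor system changes with age. UMIs were summed over the nuclei of a class in each library and tested with edgeR's quasi-likelihood test over all genes of the class. There was 1 adult library, so the test had 1 residual degree of freedom and assumed that the adult library varies like the aged ones. The fit also borrows spread from the other genes of a class, to a degree that differs between classes. A p therefore rests largely on those genes, and p values of different classes are not on the same footing. Over 95 tests of a member in a class, 16 passed a Benjamini-Hochberg adjusted p under 0.05 where 5.06% of all tests of all genes did. Of these, 14 were lower and 2 higher in aged, and 3.19% and 1.87% of all tests of all genes were called in those directions. The classes differed widely in how many genes were called. No member passed in B lymphocyte-like (1.34% of genes called), Skor2 neuron (0.686%), TRPM8 neuron-like (0.941%), PEP neuron-like (1.44%) or perineurial fibroblast-like nuclei (0.294%). At an unadjusted p under 0.05 there were 28 of 95, beside 15.6% of all tests of all genes. With DESeq2's Wald test 4 passed, beside 1.32% of all tests of all genes, and 3 of the 16 remained: Lgr4 and Lgr5 in NMSC-like and Rspo3 in endothelial-like nuclei. Lgr5 made up 8 of the 16, Lgr4 4, Rspo3 2, and Lgr6 and Znrf3 1 each. The filter kept a gene that reached its count limit in 1 library. Lgr5 in endoneurial fibroblast-like and SST neuron-like, Rspo3 in MSC-like and Lgr6 in NMSC-like nuclei reached it only where they are high. Rspo1, Rspo2, Rspo4 and Rnf43 had none in 7, 15, 3 and 6 tests, of which 1, 6, 0 and 0 had an unadjusted p under 0.05.

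**Figure D4:**
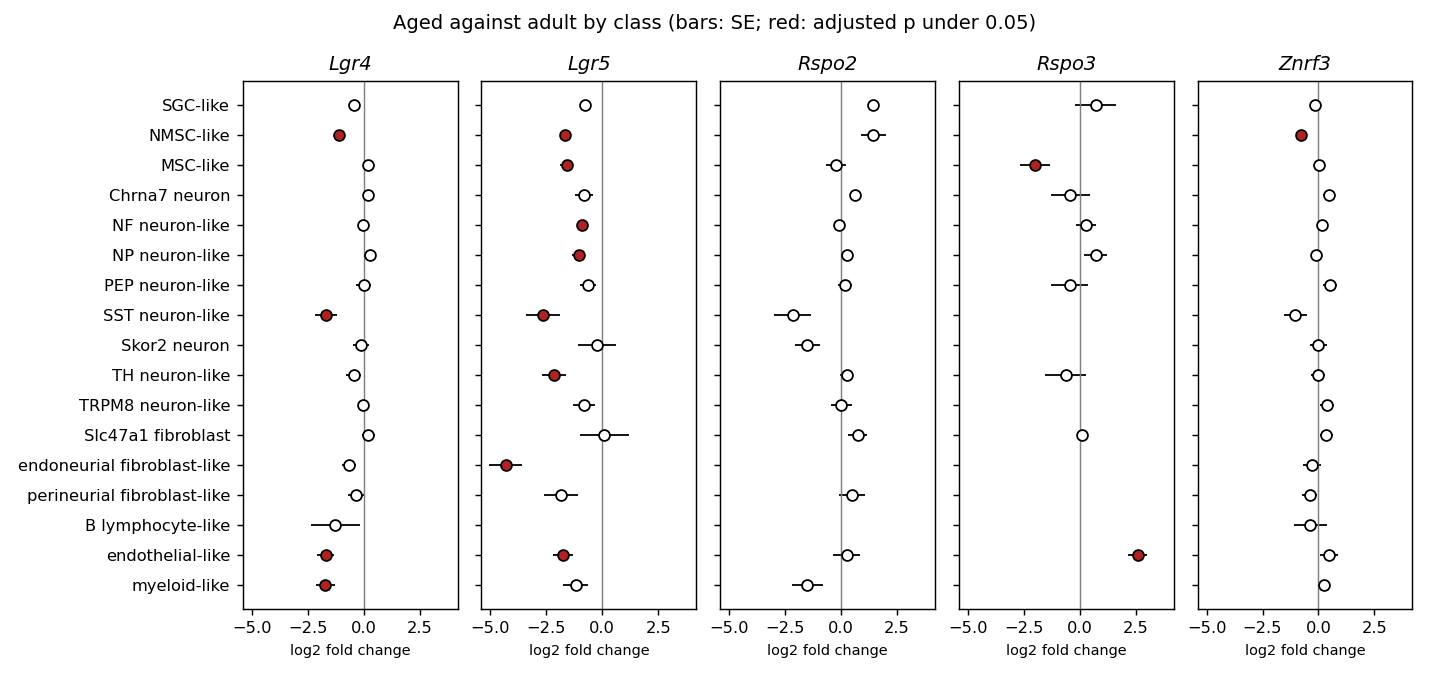
Log2 fold change (aged against adult) with its standard error for Lgr4, Lgr5, Rspo2, Rspo3 and Znrf3 in each class tested, from edgeR's quasi-likelihood fit. Red marks an adjusted p under 0.05 over all genes of the class. Lgr5 lies below 0 in nearly every class, and Rspo3 is far above 0 in endothelial-like nuclei alone (2.58).

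In NMSC-like nuclei, where 8.64% of genes were called, 4 of 5 members tested passed. Lgr5 fell from 509 CPM in adult 1 to 164 and 205 CPM in aged 1 and 2 (log2 fold change -1.65, SE 0.21, adjusted p = 2.12e-12). Lgr4 fell from 796 to 405 and 438 CPM (-1.09, SE 0.19, adjusted p = 5.34e-07), and Znrf3 from 181 to 130 and 108 CPM (-0.76, SE 0.24, adjusted p = 0.0248). Lgr6 rose from 1.88 to 17.6 and 17.5 CPM (2.99, SE 0.76, adjusted p = 0.00222), on 4 UMIs in the adult library. It entered the test through the aged libraries alone, where it is high. For each of the 4 genes the adult library stood outside the range of the aged ones. This was common: it stood above both in 36 and below both in 39 of the 95 member tests. The fifth member, Rspo2, had 6.12, 18.2 and 20.4 CPM and was not called (1.45, SE 0.56, adjusted p = 0.0910).

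Markers of neighbouring cells moved in the same class. Fabp7, an SGC marker, had 203, 45.2 and 23.3 CPM in NMSC-like nuclei, beside 366, 176 and 163 CPM in SGC-like nuclei. By markers alone 17.0%, 9.46% and 6.29% of the NMSC-like nuclei would have been put with the SGCs and 13.7%, 20.6% and 26.6% with the NMSCs, so that in the adult library more of them (131) were placed with SGCs than with NMSCs (106). The 6 fibroblast markers stood at 381, 1217 and 1153 CPM. Both checks on this were chosen after seeing the data. Without the NMSC-like nuclei that the markers would put with the SGCs (641, 268 and 134 left), all 4 members still passed, with Lgr5 at -1.86 (SE 0.21), Lgr4 at -1.12 (SE 0.18), Znrf3 at -0.81 (SE 0.24) and Lgr6 at 3.24 (SE 0.82), where 9.08% of genes were called. At full depth Fabp7 UMIs were found in 33.5%, 13.2% and 9.09% of the NMSC-like nuclei. Without those nuclei Lgr5 stood at -1.97 (SE 0.20), Lgr4 at -1.25 (SE 0.17), Znrf3 at -0.70 (SE 0.24) and Lgr6 at 3.44 (SE 0.91), again with all 4 called and with 10.1% of genes called. With every class set by markers alone, Lgr5 passed (-1.19) while Lgr4 (-0.45) and Znrf3 (-0.56) did not. The part of the fibroblast RNA in these results was not tested.

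In SGC-like nuclei, the main site of both receptors, the direction was the same and no member passed. Lgr5 had 447, 278 and 316 CPM (log2 fold change -0.78, SE 0.13, adjusted p = 0.103) and Lgr4 had 840, 680 and 736 CPM (-0.43, SE 0.12, adjusted p = 0.148). Only 11 of 15312 genes (0.0718%) passed in this class, while 3790 genes (24.8%), both receptors among them, were under 0.05 before adjustment. The aged and the adult libraries did not overlap for either, as in most of the 95 member tests. In cluster 0 alone, which held most SGC-like nuclei and where 13.1% of genes passed, Lgr5 fell from 468 to 314 and 349 CPM (-0.68, SE 0.12, adjusted p = 3.24e-04). Lgr4 had 880, 782 and 839 CPM there and did not pass (-0.30, SE 0.12). Cluster 16 made up 10.0%, 19.0% and 11.8% of the SGC-like nuclei and had less Lgr4 (561, 300 and 219 CPM). Neither receptor passed in cluster 16. Rspo2 had 7.30 CPM in the adult and 22.3 and 23 CPM in the aged SGC-like nuclei (1.44, SE 0.20, adjusted p = 0.0951), and passed in cluster 0 (1.47, SE 0.34, adjusted p = 0.00495). The level expected from free RNA was 8.29, 4.29 and 5.39 CPM for Rspo2 in SGC-like nuclei, and the 7 neuron markers in this class stood at 847, 1496 and 1356 CPM, higher in the aged libraries as Rspo2 was. Their part in the result was not tested.

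Lgr5 was also called in classes other than the glia that carry most of it. Its median log2 fold change over the 16 classes tested was -1.12, where the median over all genes of a class lay between -0.021 and 0.050. These classes share the same 3 libraries, so they do not count as separate comparisons. In endoneurial fibroblast-like nuclei, where 3.67% of genes passed, it went from 70.1 CPM to 3.91 and 2.93 CPM and was called (adjusted p = 7.19e-07), on 44, 2 and 1 UMIs, so that it entered the test through the adult library alone. The aged level was 5.02% of the adult one, with an exact 95% counting interval of 0.998% to 15.7%, and 10 of the 44 adult UMIs were in 1 nucleus. The fitted log2 fold change (-4.32, SE 0.73) rests on these few counts and on the prior count. In MSC-like nuclei (9.85% of genes called) it fell from 46.2 to 21.3 and 6.13 CPM (-1.59, SE 0.30, adjusted p = 2.46e-05), or by 3.00 on the log2 scale without aged 1. It fell in endothelial-like nuclei (1.72% called) from 82.9 to 20.5 and 34.4 CPM (-1.77, SE 0.44, adjusted p = 0.00925). It also passed in 4 neuron classes: NF neuron-like (-0.91, SE 0.19, 16.6% of genes called), NP neuron-like (-1.05, SE 0.29, 10.1%, or -1.70 without aged 1), SST neuron-like (-2.65, SE 0.76, 2.4%) and TH neuron-like (-2.15, SE 0.52, 2.36%). The SST call rested on 35, 4 and 4 UMIs, entered the test through the adult library alone and remained in 2 of 8 alternatives. The make-up of the NF class differed between ages: cluster 2 was 58.1% of it in adult 1 and 36.0% and 44.3% in the aged libraries, and cluster 4, with low Malat1, was 27.3%, 51.9% and 45.0%. Lgr5 was called within each of these, at -0.74 in cluster 2 (SE 0.21, 12% of genes called) and at -1.45 in cluster 4 (SE 0.27, 9.74% of genes called). In cluster 19, the rest of the class, it had 25.6, 22.3 and 2.64 CPM and did not pass (-0.97, SE 0.77). In the NP class, whose make-up also differed, Lgr5 stood at 26.8, 15.3 and 25.9 CPM in cluster 11 and did not pass (-0.63, adjusted p = 0.678), and at 9.36, 7.97 and 2.71 CPM in cluster 6 (-0.93, SE 0.35, adjusted p = 0.0443).

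The Lgr5 of free RNA moved the same way, at 48.1 CPM in adult 1 and 17.1 and 11.9 CPM in aged 1 and 2. The level that free RNA would give is listed for some of these classes in the adult library. It was 10.9 CPM beside 70.1 measured in endoneurial fibroblast-like and 10.3 beside 46.2 in MSC-like nuclei. It was 13.2 beside 82.9 in endothelial-like and 2.57 beside 13.0 in TH neuron-like nuclei. These are low estimates, since the free share was the lowest that any list of foreign markers gave. With that level subtracted, 11 of the 16 calls over all members remained. The adult library also held far more SGC-like nuclei (3230 of its 11158 named nuclei, beside 517 of 4872 and 254 of 2475). The summed level of the 4 pan-glial markers in endothelial-like nuclei was 817, 513 and 322 CPM and that of Fabp7 was 107, 28.7 and 6.26 CPM, so glial RNA in this class was higher in the adult library as Lgr5 was. The part of glial RNA in these results was not tested beyond that subtraction.

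Lgr4 was called in 3 classes besides NMSC-like nuclei. It fell from 169 to 65.5 and 34.4 CPM in endothelial-like nuclei (-1.70, SE 0.37, adjusted p = 0.00178, or -2.33 without aged 1), from 81.0 to 31.7 and 15.5 CPM in myeloid-like nuclei (-1.71, SE 0.41, adjusted p = 0.0160, 13.1% of genes called, or -2.24 without aged 1 and -1.20 without aged 2) and from 62.0 to 20.8 and 21.6 CPM in SST neuron-like nuclei (-1.68, SE 0.47, adjusted p = 0.0196). The last of these calls remained in 2 of 8 alternatives, and with classes set by markers alone the value was -0.29. Each of these levels is a small part of that in SGC-like nuclei, and the pan-glial markers in myeloid-like nuclei stood at 598, 253 and 150 CPM. The T cell markers in the myeloid-like class were 620, 376 and 237 CPM, so that the make-up of that class also differed. In MSC-like nuclei Lgr4 went the other way, from 194 to 221 and 266 CPM, and did not pass (0.20, SE 0.16, adjusted p = 0.509). In NP neuron-like nuclei Lgr4 did not pass (0.30, adjusted p = 0.402). In cluster 6 of that class it rose from 59.1 to 89.8 and 93.7 CPM (0.50, SE 0.17, adjusted p = 0.0183, 19.1% of genes called), while cluster 11 had 73.4, 33.5 and 72.5 CPM (-0.74, adjusted p = 0.409).

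Among whole classes Rspo3 was the only R-spondin with an age call, and it moved in opposite directions in 2 classes. In endothelial-like nuclei it rose from 50.5 CPM in adult 1 to 295 and 332 CPM in the aged libraries (2.58, SE 0.44, adjusted p = 1.05e-05), on 42, 288 and 106 UMIs. After thinning 4.29% of adult and 13.8% and 20.3% of aged endothelial-like nuclei had a UMI. The nucleus with the most Rspo3 held 19 of the 42 adult UMIs, 26 of 288 in aged 1 and 27 of 106 in aged 2. The endothelial markers stood at 3770, 3650 and 5220 CPM. Of the leading genes of Slc47a1 fibroblasts, the class richest in Rspo3, Slc47a1 had 45.7, 15.4 and 9.39 CPM in endothelial-like nuclei and Slc26a7 had 6.01, 13.3 and 15.6 CPM on 5, 13 and 5 UMIs, so the first went against Rspo3 and the second along with it. In its own class Slc47a1 also went down, from 2451 to 1894 and 1915 CPM. The part of fibroblast RNA in the Rspo3 rise was not tested. The antisense Gm48159 had 222, 179 and 125 CPM there, opposite to Rspo3, and the same order of libraries in most other classes. In MSC-like nuclei Rspo3 fell from 12.3 to 3.73 and 2.04 CPM (-2.01, SE 0.66, adjusted p = 0.0348, or -2.64 without aged 1), on 25, 10 and 2 UMIs. It entered the test there through the adult library alone. Slc47a1 moved with it there, at 30.9, 8.59 and 2.04 CPM, as did Slc26a7 (7.37, 1.87 and 0 CPM), and the part of fibroblast RNA in this call was not tested. In its main source, Slc47a1 fibroblasts (1.01% of genes called), it had 575, 529 and 769 CPM, the adult library between the aged ones (0.10, SE 0.24, adjusted p = 0.937).

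Rspo2 in NP neuron-like nuclei, its main source, was 266 CPM in adult 1 and 337 and 366 CPM in the aged libraries and did not pass (0.28, SE 0.21, adjusted p = 0.468). In Chrna7 neurons it had 57.7, 107 and 107 CPM (0.64, SE 0.17, adjusted p = 0.109, 2.62% of genes called). Znrf3 in SGC-like nuclei differed by less than its error (-0.15, SE 0.16), as did Rspo4 in NP neuron-like nuclei (0.079, SE 0.34).

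A change called in one class and not in another is no evidence that the classes differ, so the class by age term was tested with the library as a block. Of 185 such pairs, 44 passed, where 2.11% of all genes in all pairs did. Each pair held a class in which the member was already called, while the genes behind the 2.11% were not chosen that way. The higher share of the members is therefore no separate result. The fall of Lgr5 was deeper in NMSC-like than in SGC-like nuclei by 0.86 on the log2 scale (a difference of -0.86, SE 0.17, adjusted p = 0.00180, 3.87% of genes called), and that of Lgr4 likewise (-0.64, SE 0.14, adjusted p = 0.00476). With classes set by markers alone the difference for Lgr4 was 0.081, on the other side of 0. Lgr4 also differed between NMSC-like and MSC-like nuclei (-1.30, SE 0.21, adjusted p = 8.56e-05, 2.35% of genes called). For Znrf3 the same contrast with SGC-like nuclei did not pass (-0.57, SE 0.21, adjusted p = 0.166). The difference between endoneurial fibroblast-like and SGC-like nuclei for Lgr5 was -3.59 (2.58% of genes called in this contrast), and it is given as a value only, since the gene entered the fibroblast test through the adult library. The falls of Lgr5 in MSC-like, endothelial-like, NF, NP, SST and TH neuron-like nuclei were not shown to differ from that in SGC-like nuclei (adjusted p from 0.116 to 0.774). Nor were those of Lgr4 in endothelial-like, myeloid-like and SST neuron-like nuclei (adjusted p = 0.281, 0.0839 and 0.228). Rspo3 in endothelial-like nuclei differed from Rspo3 in Slc47a1 fibroblasts (2.46, SE 0.44, adjusted p = 0.00440, 0.324% of genes called). Its difference from Rspo3 in MSC-like nuclei was 4.56 (0.232% of genes called in this contrast). That one is given as a value only, since the gene entered the MSC-like test through the adult library.

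The rest of the Wnt pathway was followed in a list of 76 other genes (20 ligands, which were Wnts and Ndp, 2 genes of Wnt secretion, 15 receptors, 16 antagonists, 15 intracellular transducers and 8 feedback targets). Of 683 tests, 33 passed (4.83%, near the 5.06% over all genes), 15 higher and 18 lower in aged, and the median log2 fold change was -0.018. In SGC-like nuclei, where the receptors are highest, 0 of 47 passed, and the 12 with an unadjusted p under 0.05 (25.5%) compare with 24.8% of all genes of that class. In NMSC-like nuclei 7 of 44 passed (15.9%, beside 8.64% of all genes). The feedback inhibitor Nkd1 rose there from 10.4 to 46.6 and 59.7 CPM (2.15, SE 0.43), and Nkd2, also a feedback inhibitor, had no UMI in the adult library and 33.8 and 46.6 CPM in the aged ones, at least 28.5-fold higher against a floor of 3 counts. The receptor Fzd1 rose from 5.65 to 34.4 and 17.5 CPM (2.11, SE 0.51, or 1.42 without aged 1). Nkd2 and Fzd1 entered the test through the aged libraries alone, where they are high, and both count among the 7 that passed. The transcription factors Tcf7l1 and Tcf7l2 fell (-1.10 and -0.79), as did the secreted Dkk3 (-1.05) and the Wnt5a receptor Ror1 (-0.79). The fibroblast markers were higher in the aged libraries in these nuclei too (381, 1217 and 1153 CPM), and over the classes Nkd2 was highest in endoneurial fibroblast-like nuclei (31.8, 46.9 and 70.4 CPM), Fzd1 in Slc47a1 fibroblasts (23, 40.4 and 32.3 CPM) and Nkd1 in endothelial-like nuclei. The part of fibroblast RNA in these rises was not tested.

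**Figure D5:**
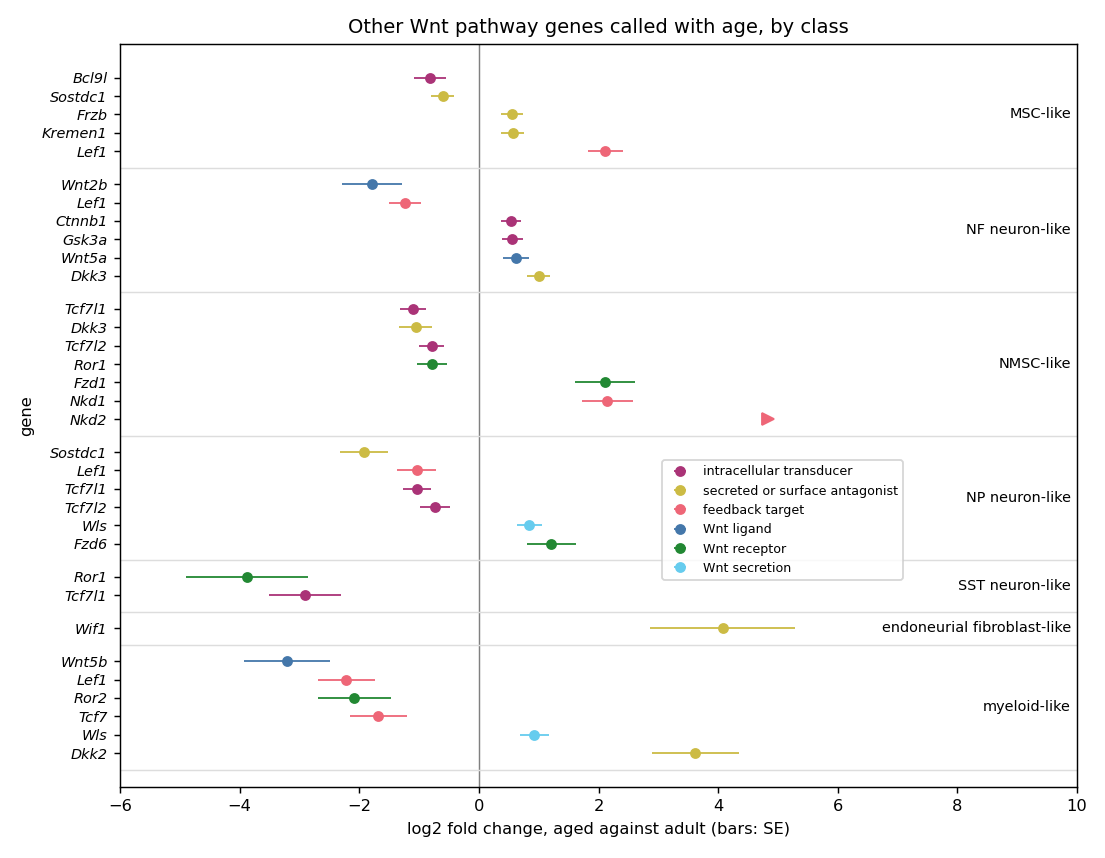
Log2 fold change (aged against adult) in the 33 tests of a Wnt pathway gene in a class that passed, coloured by role, so that a gene can stand in several classes. The triangle is a lower bound for Nkd2 in NMSC-like nuclei, which had 0 UMIs in the adult library. Lef1 is above 0 in MSC-like nuclei (2.11) and below 0 in myeloid, NF and NP neuron-like nuclei.

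Lef1, a transcription factor and target of Wnt signalling, passed in 4 classes with different signs. It rose in MSC-like nuclei from 15.7 to 67.2 and 82.7 CPM (2.11, SE 0.29, adjusted p = 3.24e-09), and fell in NF neuron-like nuclei from 11.5 to 5.50 and 5.67 CPM (-1.24, SE 0.27). In myeloid-like nuclei it fell from 199 to 65.8 and 14.5 CPM (-2.22, SE 0.48), or by 3.63 on the log2 scale without aged 1 and by 1.45 without aged 2. In NP neuron-like nuclei it had 8.60, 7.04 and 1.85 CPM (-1.04, SE 0.33), a call that rested on aged 2, since the value was -0.47 without it and -2.31 without aged 1. Lef1 is also a T cell gene, and T cell markers were lower in the aged myeloid-like nuclei, where Tcf7, another T cell gene, fell too (-1.69, SE 0.48). The part of T cell RNA in the Lef1 result was not tested. In MSC-like nuclei the antagonists Frzb and Kremen1 rose (0.56 and 0.56) and Sostdc1 fell (-0.60), and the summed level of the 7 myelin markers was 40765, 16988 and 15489 CPM. In NP neuron-like nuclei Tcf7l1, Tcf7l2 and Sostdc1 fell (-1.03, -0.74 and -1.93, the last -2.94 without aged 1) and Fzd6 and Wls, which carries Wnts to the cell surface, rose (1.21 and 0.84). In endothelial-like nuclei, the site of the Rspo3 rise, none of 43 passed and 5 had an unadjusted p under 0.05 (11.6%, beside 10.2% of all genes of that class).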

How the data were processed

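Single-nucleus RNA-seq libraries (PIP-seq, 3′ RNA prep) were analysed from L3 to L5 DRG of adult (n = 1) and aged (n = 2) mice. The authors aligned reads and counted UMIs with Pipseeker v3.3.0, and the deposited matrices hold raw UMI counts per gene and barcode with no normalization. The submitters' processing notes name the build mm10. The annotation, the parameters of the counting and its use of strand are not given in the sources used here. The members and all gene lists were chosen with earlier results of these data known.

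Barcodes with more than 1000 genes were kept (53.8%, 58.4% and 54.5% of UMIs). SCTransform and RPCA integration (Seurat 5.3.0, 30 principal components, resolution 0.8) were run on 3000 variable genes, from which 23 member and pathway genes were removed. Clusters were named from fixed markers by a rule written after the clusters were seen. No doublet caller was run, and clusters with markers of several lineages were set aside. UMIs were summed per class and library for classes with at least 20 nuclei in each library, which left out Il1rapl2 neurons, Ranbp3l fibroblasts, mural-like and cycling erythroid-like nuclei. Sums were tested with edgeR 4.0.16 (quasi-likelihood, TMM, filterByExpr, prior count 0.125) over all genes of a class, and class by age terms in the same way with the library as a block. The script was tested on simulated counts. Free RNA was taken from barcodes of at most 100 UMIs, and its share in a class was set by the list of foreign markers with the lowest ratio to free RNA.

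Named genes were all 9 members, the pathway genes called with age that were among the 3 largest changes of their role in a class, and for each member the 3 genes of at least 300 UMIs most like it over the classes. Coordinates and overlaps were read from GENCODE M21 on GRCm38. Intervals are exact Poisson at 95% and cover counting error only. The alternatives were DESeq2 1.42.0, other scalings and filters, a limit of 2000 genes, thinning to 1000 UMIs, free RNA subtraction, classes by markers alone, each library left out, and, chosen after seeing the data, clusters in place of classes, no clusters of low Malat1, and NMSC-like nuclei without those that carry SGC markers.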

Additional observations from a re-analysis of the deposited data

Results flagged for a closer look

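The class by age term was tested in edgeR's quasi-likelihood fit, in pairs chosen because 1 of their classes already had a call. Each set that class mainly against the class where the gene is highest or against another glial class. The term passed in 8 of these pairs and not in the others. In the pairs named here, 0.232% to 8.08% of all genes were called. For Lgr5 the log2 change in endoneurial fibroblast-like nuclei stood at a difference of -3.59 from that in SGC-like nuclei, which is a value only, since the fibroblast sums held 44, 2 and 1 UMIs and the gene entered the test through the adult library. The change of Lgr5 in NMSC-like nuclei was lower than that in SGC-like nuclei (-0.86). For Lgr4 the change in NMSC-like nuclei was lower than in MSC-like nuclei (-1.30) and than in SGC-like nuclei (-0.64). For Rspo3 the change in endothelial-like nuclei was higher than in Slc47a1 fibroblasts (2.46). The other Rspo3 differences are values only, since the gene entered the MSC-like test through the adult library. The change in endothelial-like nuclei stood at a difference of 4.56 from that in MSC-like nuclei. The change in MSC-like nuclei stood at -2.76 from that in SGC-like nuclei and at -1.97 from that in Slc47a1 fibroblasts. The first of the last 2 differences was -0.87 without aged replicate 1 and -3.06 without aged replicate 2, and the second -2.94 and -1.58. The Rspo3 sums of SGC-like nuclei held 28, 34 and 2 UMIs and those of MSC-like nuclei 25, 10 and 2.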

How the results depend on the processing

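Of the members called with age, 16 passed in the fit reported, 12 with classes set by markers alone, 4 with DESeq2 and 5 of 38 tests after thinning to 1000 UMIs, which leaves fewer UMIs to test. The share of all tests of all genes was 5.06% in the fit reported and 1.32% with DESeq2. It is not given here for the other settings, so those counts describe the members only. Of the 16 calls, 16 remained without clusters of low Malat1, 15 with RLE size factors, 13 with no filter on low counts, 12 with a limit of 2000 genes, 11 with library totals only, 11 with free RNA subtracted, 8 of 14 with classes set by markers alone, 4 of 8 after thinning and 3 with DESeq2. All 16 kept their direction under each alternative that gave a value. Rspo3 in endothelial-like and Lgr5 in NMSC-like nuclei passed in 9 of 9 and 11 of 11 alternatives with a test (1.69 to 2.67 and -1.97 to -0.81), while Lgr4 and Lgr5 in SST neuron-like nuclei passed in 2 of 8. Lgr4 in NMSC-like nuclei did not pass with classes set by markers alone (-0.45). Lgr5 in SGC-like nuclei, not called in the fit reported, passed in 6 alternatives. Without aged replicate 1 or aged replicate 2 the 16 values ran from -4.58 to 3.00. Pathway genes passed 33 times, 6 with DESeq2 and 7 of 310 after thinning. Scaling by library totals alone moved the median of all genes in SGC-like nuclei by 0.19 on the log2 scale, with 2820 genes called higher and 813 lower in aged, beside 1 and 10. The class with the highest mean was kept for 9 of 9 members under most alternatives and for 8 without adult replicate 1 or aged replicate 2. With classes set by markers alone it was kept for 3, and 6 moved. That setting has no Slc47a1 or Ranbp3l fibroblast class, so Rspo3 and Rnf43 could not keep theirs. Lgr4 and Lgr5, led by SGC-like nuclei in the fit reported, moved to glia that fitted no single glial list, a class the fit reported does not have. Lgr6 moved from NMSC-like to epineurial fibroblast-like nuclei and Rspo1 from SGC-like to mural-like nuclei, and the cause was not tested. Class by age terms passed 44 times, 22 with classes set by markers alone and 3 of 110 after thinning. The sign turned for Lgr5 in MSC-like against NMSC-like nuclei (-1.50 without aged replicate 1 and 0.62 without aged replicate 2, and -1.18 by markers alone), for Lgr5 in NF neuron-like against SGC-like nuclei (0.051 without aged replicate 1 and -0.22 without aged replicate 2), for Lgr5 in NP neuron-like against SGC-like nuclei (-1.06 without aged replicate 1 and 0.14 without aged replicate 2), and by markers alone for Lgr4 in NMSC-like (0.081) and in SST neuron-like nuclei (0.20) against SGC-like nuclei, and the cause was not tested. No paired analysis was possible, since replicate numbers are labels within each age and no label pairs an adult with an aged library.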

Other observations

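The other genes of the Wnt pathway had sources of their own in the ganglion, and the ones named here were chosen after their values were seen, from those with at least 300 UMIs in named nuclei. The levels are given in CPM for adult 1, aged 1 and aged 2 and were not tested between classes. Of 9 ligands on the list, 5 were highest in a fibroblast class, 3 in a neuron class (Wnt2b, Wnt7a and Ndp, the last of which is not a Wnt) and 1, Wnt5b, in mural-like nuclei. The place of Wnt5b is not fixed, since its 120, 132 and 330 CPM came from 59, 18 and 3 nuclei and Ranbp3l fibroblasts followed with a mean of 178 CPM. Among those of the fibroblasts were Wnt6 in perineurial fibroblast-like nuclei (155, 186 and 253 CPM), Wnt9a in Slc47a1 fibroblasts (96.0, 115 and 94.1 CPM), Wnt4 in Ranbp3l fibroblasts (203, 92.5 and 213 CPM) and Wnt5a in endoneurial fibroblast-like nuclei (102, 66.5 and 88.0 CPM). Slc47a1 fibroblasts, the main source of Rspo3, also had the highest level of the Wnt co-receptor Lrp6 (540, 493 and 573 CPM) and of the secreted antagonist Sfrp4 (367, 676 and 261 CPM).

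Endothelial-like nuclei, where Znrf3 was highest and Rspo3 second, also led in the Wnt targets Lef1 (505, 647 and 920 CPM), Axin2 (42.0, 87.1 and 87.6 CPM) and Nkd1 (51.7, 68.6 and 103 CPM), and in the receptors Fzd4 (69.7, 95.2 and 160 CPM), Fzd6 (67.3, 128 and 128 CPM) and Lrp5 (78.1, 104 and 160 CPM). All 6 were higher in both aged libraries than in the adult one, and none was called with age in this class, so these values describe the libraries only. SGC-like nuclei, where Lgr4 and Lgr5 were highest, led in Tcf7l1 (819, 630 and 712 CPM), a transcription factor of the pathway. MSC-like nuclei led in Fzd3 (237, 271 and 331 CPM) and in the antagonists Frzb (106, 159 and 179 CPM), Dkk3 (139, 146 and 139 CPM) and Kremen1 (72.2, 113 and 115 CPM).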
